A study of Schizosaccharomyces pombe with 30 samples.

Results

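Internal introns lie between the first and the last intron of a transcript, so each has a spliced exon on both sides and other introns as neighbours. The set described here holds 1241 internal introns of 631 fission yeast genes, of 4821 introns in 2315 genes that could be measured against an exon of the same gene. An intron was taken as internal where its number was above 1 and below the highest intron number of its gene, in genes whose highest number was 3 or more and that had an exon feature on the array. The rule itself uses no measured value, but it was chosen with earlier results of these data known. One internal intron was present in 323 genes, 2 in 161 genes and 3 or more in 147 genes, with at most 8 in a gene. The other introns were 624 first and 633 last introns of multi-intron genes, 1284 introns of 643 genes with 2 introns and 1039 introns of single-intron genes.

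An intron is recognised through its 5′ splice site, which pairs with the U1 snRNP, through a branch site near its end and through its 3′ splice site, and the spliceosome then joins the exons in a pair of steps. Fission yeast introns are mostly short, and their splice signals vary more than those of budding yeast. Pht1 is the H2A.Z histone variant, which replaces H2A in nucleosomes near gene starts, and Swr1 is the ATPase of the complex that places it there. Usp107 is a protein of the U1 snRNP, and Prp16 is an ATPase that acts at the second step of splicing. A DAmP allele disturbs the 3′ end of an mRNA so as to lower its abundance. The series asks whether H2A.Z affects the splicing of introns.

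The 30 splicing arrays compared Schizosaccharomyces pombe mutant RNA, labelled with Cy5, with wild-type RNA, labelled with Cy3, and made up 10 groups of 3 without a dye swap. All strains grew in YES5 medium at 30 °C, shifts lasted 9 hours at 16 °C and 2 hours at 37 °C, and the wild-type RNA of each array had the same temperature treatment as the mutant. The groups were pht1∆ usp107DAmP and usp107DAmP at 30 °C, pht1∆ prp16DAmP, prp16DAmP and pht1∆ after the shift to 16 °C, swr1∆ and pht1∆ at 30 °C, and swr1∆ prp16DAmP, swr1∆ and prp16DAmP after the shift to 37 °C. The labels do not say whether the replicates are separate cultures, so a p-value here reflects array-to-array spread, which may be technical.

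Values are log2 ratios of mutant over wild type of an intron, exon or exon-exon junction feature. The index of an intron is the difference between the log2 ratios of its own feature and of its gene's exon feature (intron minus exon), so an intron retained in the mutant has an index above 0. A second measure, the within-gene difference, is the log2 ratio of an intron feature minus the mean of the other introns of that gene, in which the exon feature and any change of the whole transcript cancel. Both were tested with limma over all introns, at an adjusted p of 0.05. Every ± is limma's standard error for n = 3 arrays per group unless SD is written. Its spread was estimated per intron over all 30 arrays, so it is not the spread of the 3 arrays printed. Over internal introns the median SD of the index was 0.268 for the label pht1∆ usp107DAmP and 0.106 for prp16DAmP at 37 °C. A shared spread can be too small in the first and too large in the second. For pht1 itself the exon feature was lower in pht1∆, with -0.74 ± 0.10 after the shift to 16 °C (adjusted p = 5.3e-06) and -0.65 ± 0.10 without a shift (adjusted p = 2.6e-05). It did not fall on the arrays labelled pht1∆ usp107DAmP (0.02 ± 0.10) and pht1∆ prp16DAmP (-0.03 ± 0.10), nor did the features of swr1, usp107 and prp16 pass the test on the arrays that carry those labels, where they lay between -0.19 and 0.28. Directions given for those arrays rest on their labels, and no source used here gives where the probes lie relative to a deletion. The prp16 feature was called lower by limma on the arrays labelled pht1∆ usp107DAmP (-0.51 ± 0.20, adjusted p = 0.0395), a label that does not name prp16. Between replicate arrays the correlation of the index over internal introns was lowest at 0.024 and highest at 0.746, both within the group labelled swr1∆ prp16DAmP. In pht1∆ it was 0.522 to 0.589 after the 16 °C shift and 0.39 to 0.466 at 30 °C. Intron values that recur on an array made up 33.7% of internal introns on pht1∆ 30 °C replicate 1, 19.9% on the array labelled swr1∆ 30 °C replicate 1, and at most 6.04% on the others.

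The introns below are those on which the results turn, with a neighbour of the same transcript beside 3 of them. They are RefSeq sequence of assembly ASM294v3, read 5′ to 3′ on the transcript strand, and were matched by the order of coding introns in genes where the highest intron number on the array equals the annotated number. Capitals mark the 6 bases of the 5′ splice site, a 5-base branch motif where one was found, and the last 3 bases at the 3′ splice site. In ers1, which encodes an RNAi factor, introns 7, 8 and 9 are at chrIII:803410-803446, chrIII:803558-803599 and chrIII:803882-803931 on the plus strand.
ers1 intron 7: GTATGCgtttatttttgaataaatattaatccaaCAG
ers1 intron 8: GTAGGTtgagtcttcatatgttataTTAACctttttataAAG
ers1 intron 9: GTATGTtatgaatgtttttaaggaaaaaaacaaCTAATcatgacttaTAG
In fkh1, which encodes an FKBP-type prolyl isomerase, introns 2 and 3 are at chrII:632268-632395 and chrII:632143-632247 on the minus strand.
fkh1 intron 2: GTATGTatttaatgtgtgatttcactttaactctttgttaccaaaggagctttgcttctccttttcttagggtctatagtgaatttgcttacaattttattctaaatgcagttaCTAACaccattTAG
fkh1 intron 3: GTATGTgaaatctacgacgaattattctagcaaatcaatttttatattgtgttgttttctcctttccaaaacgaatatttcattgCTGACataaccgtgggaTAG
In vps35, which encodes a retromer subunit, introns 2, 3 and 4 are at chrIII:1621318-1621360, chrIII:1621711-1621764 and chrIII:1621823-1621869 on the plus strand.
vps35 intron 2: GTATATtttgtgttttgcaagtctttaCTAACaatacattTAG
vps35 intron 3: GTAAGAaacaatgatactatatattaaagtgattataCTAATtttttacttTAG
vps35 intron 4: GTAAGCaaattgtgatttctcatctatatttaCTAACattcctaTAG
In rmt1, which encodes a protein arginine methyltransferase, intron 3 is at chrI:5017253-5017420 on the minus strand.
rmt1 intron 3: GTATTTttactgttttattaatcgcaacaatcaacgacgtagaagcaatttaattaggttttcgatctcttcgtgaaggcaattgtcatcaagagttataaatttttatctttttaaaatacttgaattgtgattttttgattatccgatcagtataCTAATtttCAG

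Sequence could be assigned to 1033 internal introns of 555 genes. Their median length was 53 bases, with a range of 35 to 817 bases, against 56 bases for all 4292 placed introns. The 5′ splice site GTAAGT was carried by 23.0% of internal introns, 31.5% of last introns, 21.6% of first introns and 28.2% of all introns. GTATGT was carried by 18.6% of internal introns and 20.4% of all introns. A branch motif (CTAAC, or a form with CTGAC, with CTAAT, with CTGAT, with TTAAC or with TTGAC, on the transcript strand in the last 40 bases, with 5 or more bases after it) was found in 90.1% of internal introns and 91.7% of all introns. It was CTAAC in 42.6% of internal introns and 45.6% of all introns, and the median distance from the branch A to the end of the intron was 11 bases in both. These shares are descriptions of the annotation and were not tested.

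More internal introns had a higher than a lower index in all groups at 16 and 30 °C, in shares close to or below those among introns at large. With the junction feature in place of the exon feature that order turned on the arrays labelled swr1∆ at 30 °C, with 15 higher and 25 lower, and in pht1∆ at 30 °C the split was 86 higher and 66 lower. The group labelled pht1∆ usp107DAmP had 286 internal introns (23.0%) called higher and 69 (5.56%) called lower, against 25.1% and 5.48% of all introns tested. In pht1∆ at 16 °C 227 (18.3%) were higher and 43 (3.46%) lower, against 21.9% and 3.88% of all introns. Of the internal introns on arrays labelled pht1∆ prp16DAmP 182 (14.7%) were higher and 39 lower, against 14.5% and 3.09% of all introns, and on those labelled prp16DAmP at 16 °C 174 (14.0%) were higher and 41 lower, against 14.1% and 3.48%. The order of the groups depends on the scaling, since pht1∆ usp107DAmP gave 124 calls in all with arrays scaled to equal spread and 31 in a fit of only the arrays compared, against 204 and 225 for pht1∆ at 16 °C. In pht1∆ at 30 °C 145 (11.7%) were higher and 40 lower, against 14.0% and 3.61% of all introns. For usp107DAmP 131 (10.6%) were higher and 30 lower on the arrays so labelled, against 11.6% and 2.68%, and on those labelled swr1∆ at 30 °C 47 (3.79%) were higher and 20 lower, against 4.56% and 1.74%. Each share of internal introns lay near the share of all introns, so these counts single out no property of internal introns, and the shares were not tested against each other.

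After the shift to 37 °C the number of internal introns called depended on the fit. With the label swr1∆ prp16DAmP 3 were higher and 1 lower, against 0.166% and 0.0415% of all introns, and limma called 0 in the groups labelled swr1∆ and prp16DAmP at 37 °C, where all introns gave 0.0% and 0.0% in swr1∆ and 0.0415% and 0.0207% in prp16DAmP. At an unadjusted p of 0.05 the numbers were 165, 105 and 66 internal introns in those 3 groups. With arrays scaled to equal spread 49, 121 and 161 were called, and in fits of only the arrays compared 0, 69 and 81. The 3 higher introns were prp39 intron 2 (0.67 ± 0.15), ckn1 intron 3 (0.66 ± 0.11) and trm5 intron 3 (0.63 ± 0.13), and the lower one was mug137 intron 4 (-0.81 ± 0.15). None of these 4 passed with the junction feature as reference (0.12, 0.35, 0.20 and -0.53), in a fit of only the arrays compared, or without replicate 1 or replicate 2. Prp39 is a U1 snRNP protein and Trm5 a tRNA methyltransferase.

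Single arrays set many of these counts. Without replicate 1 the number called, higher and lower together, was 116 in pht1∆ at 16 °C, 119 in pht1∆ at 30 °C, 21 on the arrays labelled prp16DAmP at 16 °C, 53 on those labelled pht1∆ prp16DAmP and 7 on those labelled swr1∆ at 30 °C. Without replicate 2 it was 33 on the arrays labelled usp107DAmP, 146 on those labelled pht1∆ usp107DAmP, 107 on those labelled pht1∆ prp16DAmP, 133 on those labelled prp16DAmP at 16 °C and 20 on those labelled swr1∆ at 30 °C. Without replicate 1 the arrays labelled usp107DAmP gave 105, and without replicate 3 those labelled swr1∆ at 30 °C gave 128. For swr1∆ prp16DAmP the number was 0 without replicate 1 or replicate 2 and 14 without replicate 3, and leaving out replicate 1 gave 3 for swr1∆ and 1 for prp16DAmP at 37 °C. Without introns whose values recur on an array, 126 were called in pht1∆ at 30 °C, 268 in pht1∆ at 16 °C and 68 on the arrays labelled swr1∆ at 30 °C.

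**Figure D1:**
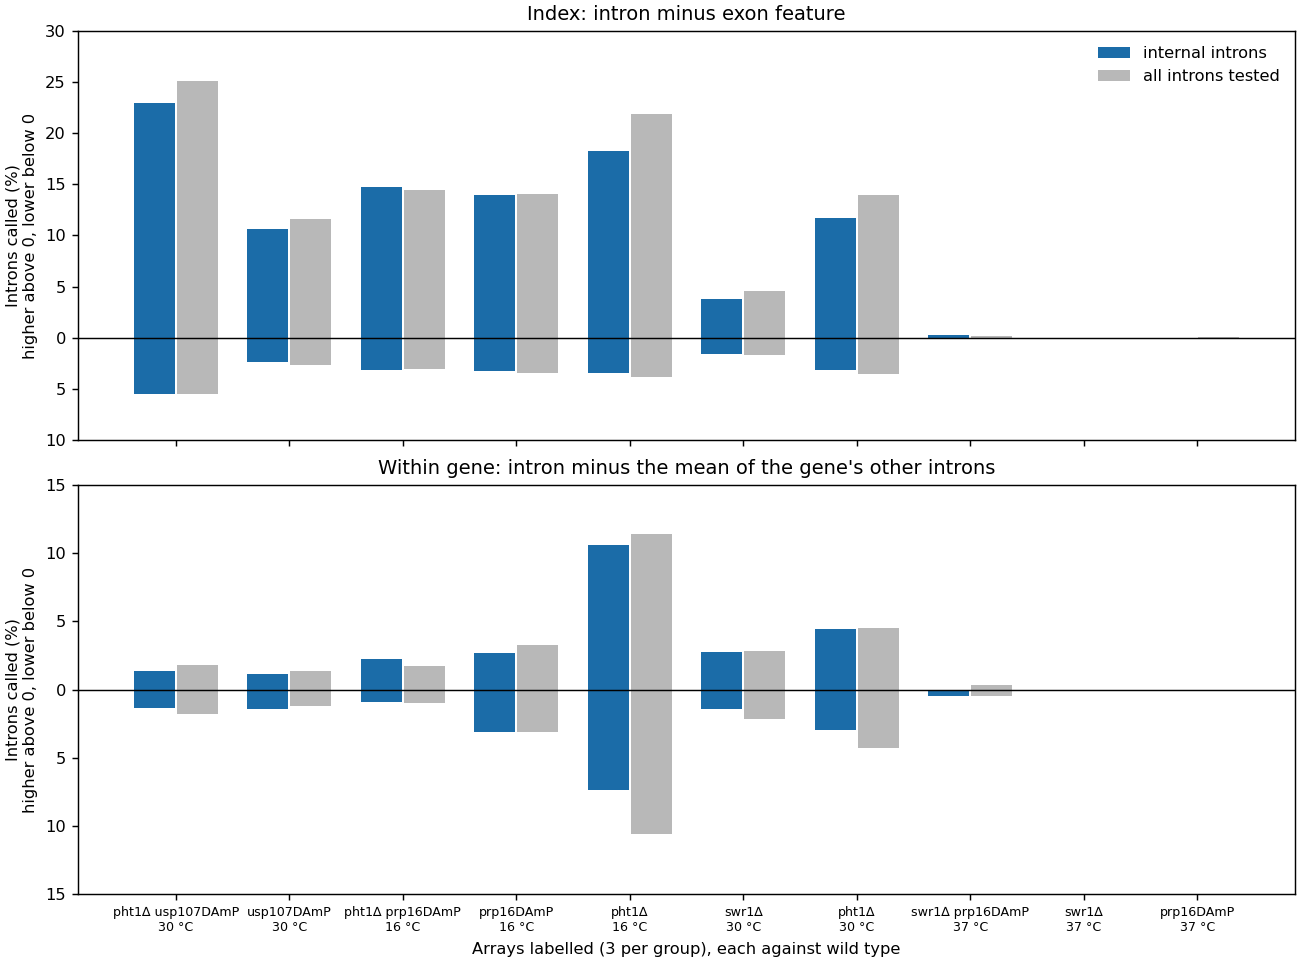
Percent of internal introns and of all introns called higher (above 0) or lower (below 0) by limma at an adjusted p of 0.05, in each of the 10 groups of 3 arrays against wild type, for the index (top) and for the within-gene difference (bottom). By index the arrays labelled pht1∆ usp107DAmP had the highest share of internal introns called higher, 23.0%, and by the within-gene difference pht1∆ at 16 °C did, 10.6%.

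The median index of internal introns was 0.104 on the arrays labelled pht1∆ usp107DAmP and 0.096 in pht1∆ at 16 °C, against 0.136 and 0.114 over all introns. Taken array by array, the median of internal introns minus that of all other introns was -0.052 ± 0.035 on the arrays labelled pht1∆ usp107DAmP, -0.03 ± 0.002 in pht1∆ at 16 °C and -0.033 ± 0.014 in pht1∆ at 30 °C (SD, n = 3), and was below 0 on 3 of 3 arrays in each. It was also below 0 on 3 of 3 arrays labelled pht1∆ prp16DAmP (-0.012), above 0 on 3 of 3 labelled swr1∆ (0.01) and prp16DAmP (0.003) at 37 °C, and between -0.007 and 0.001 in the other 4 groups. With 3 arrays an exact sign-flip test cannot go below p = 0.25. Against first introns of multi-intron genes the difference in pht1∆ at 16 °C was 0.001 ± 0.025, and against last introns 0.009 ± 0.011 (SD, n = 3). The remaining introns were those of genes with 1 or 2 introns, whose medians in pht1∆ at 16 °C were 0.151 and 0.133.

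A higher index came from different features in different mutants. In pht1∆ at 16 °C the intron feature itself was called higher for 160 of the 227 internal introns (70.5%), while the exon feature was called lower for 53 (23.3%). The median log2 ratio of these introns was 0.42 for the intron feature and -0.11 for the exon feature. For pht1∆ usp107DAmP, as labelled, the intron feature was called higher for 41 of 286 (14.3%) and the exon feature was called lower for 238 (83.2%), with medians of 0.11 and -0.40. At 30 °C in pht1∆ the numbers were 39 of 145 (26.9%) for the intron feature and 100 (69.0%) for the exon feature. In the 3 further groups with over 100 calls, labelled usp107DAmP, prp16DAmP at 16 °C and pht1∆ prp16DAmP, the intron feature was called for 14.5 to 21.3% and the exon feature for 51.7 to 69.8%. The group labelled swr1∆ at 30 °C, with 47 introns called higher, had the intron feature called for 27 (57.4%) and the exon feature for 8 (17.0%). These introns were chosen by their index, so the split is a description of what moved.

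The junction feature, which spans the joined exons on both sides of an intron, was present for 1207 internal introns. Among introns with a higher index it was called lower for 59 of 222 in pht1∆ at 16 °C, 141 of 278 on the arrays labelled pht1∆ usp107DAmP and 44 of 142 in pht1∆ at 30 °C. Where the label was pht1∆ prp16DAmP it was called lower for 21 of 175, although the exon feature was called lower for 127 of 182. The exon feature lay within 0.1 of 0 for 90 of the 227 introns (39.6%) in pht1∆ at 16 °C, and for 19 of 286 (6.64%) on the arrays labelled pht1∆ usp107DAmP.

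**Figure D2:**
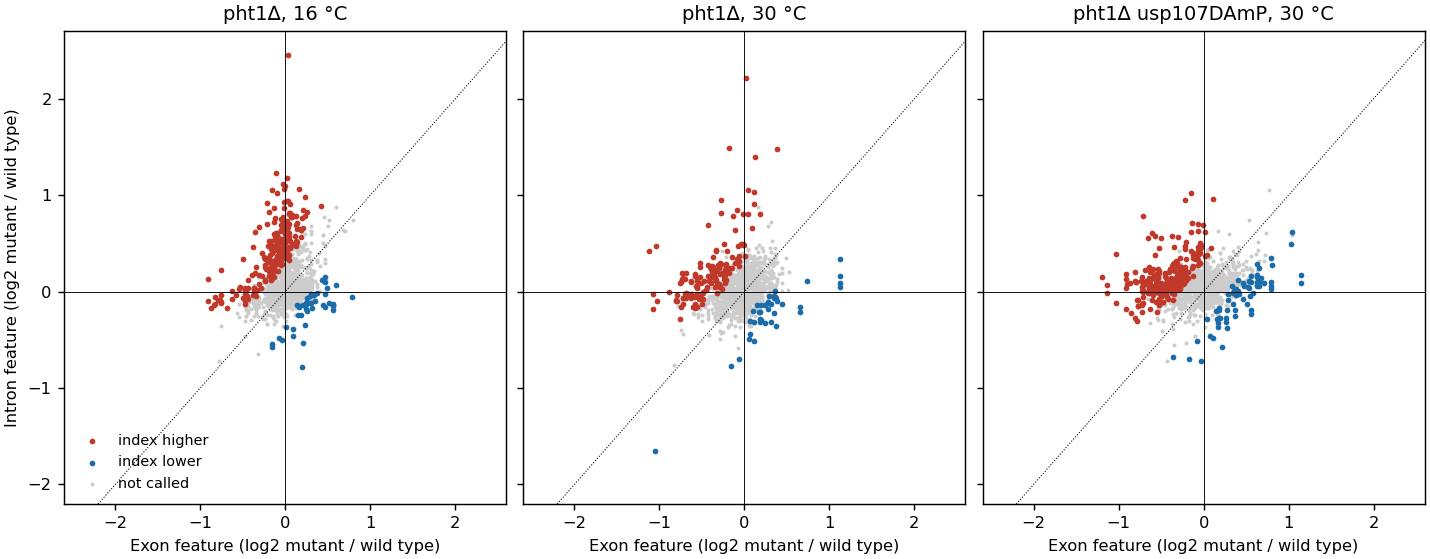
Log2 ratio of the intron feature (vertical) against that of the exon feature (horizontal) for the 1241 internal introns, as means of 3 arrays, with introns coloured by the call on their index and a dotted line where both are equal. In pht1∆ at 16 °C the introns called higher spread upwards (median intron feature 0.42), and on the arrays labelled pht1∆ usp107DAmP they spread to the left (median exon feature -0.40).

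Intron 8 of ers1 had the highest index among internal introns called in pht1∆ at both temperatures and on the arrays labelled swr1∆ at 30 °C. Its index was 2.43, 1.67 and 3.17 on the 3 arrays of pht1∆ at 16 °C (2.42 ± 0.22, adjusted p = 6.3e-09). It was 2.40, 2.12 and 2.08 in pht1∆ at 30 °C (2.20 ± 0.22, adjusted p = 3.1e-08) and 1.63, 1.70 and 2.49 on the arrays labelled swr1∆ (1.94 ± 0.22, adjusted p = 3.9e-07). All 9 of these arrays were high, and the exon feature of ers1 stayed between 0.02 and 0.13 in the means of the 3 groups. The means of the other 8 measured introns of ers1 lay between -0.20 and 0.30 for the intron feature in these 3 groups, so the rise was in 1 intron of the transcript. Its 5′ splice site, GTAGGT, scored 6.12 on a log2-odds scale over 5061 annotated introns, against 7.05 for intron 7 and 9.65 for intron 9.

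The same intron was lower on the double-mutant arrays than in pht1∆. Its index was 1.4, 0.60 and 0.56 on those labelled pht1∆ usp107DAmP, a difference of -1.35 ± 0.30 from pht1∆ at 30 °C (adjusted p = 0.00369). That difference did not pass with the junction feature in place of the exon feature (-0.86), with arrays scaled to equal spread (-1.13), or in a fit of only the arrays compared (-1.35). For pht1∆ prp16DAmP the index was 0.76, 0.20 and 0.76, and the difference from pht1∆ at 16 °C was -1.85 ± 0.30 (adjusted p = 0.00044). The arrays of each double mutant did not overlap those of pht1∆ at the same temperature. With usp107DAmP alone the index was 0.90, 1.0 and 0.31 (0.74 ± 0.22, adjusted p = 0.0214). The pht1 feature did not fall on either set of double-mutant arrays, and its part in these differences was not tested.

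**Figure D3:**
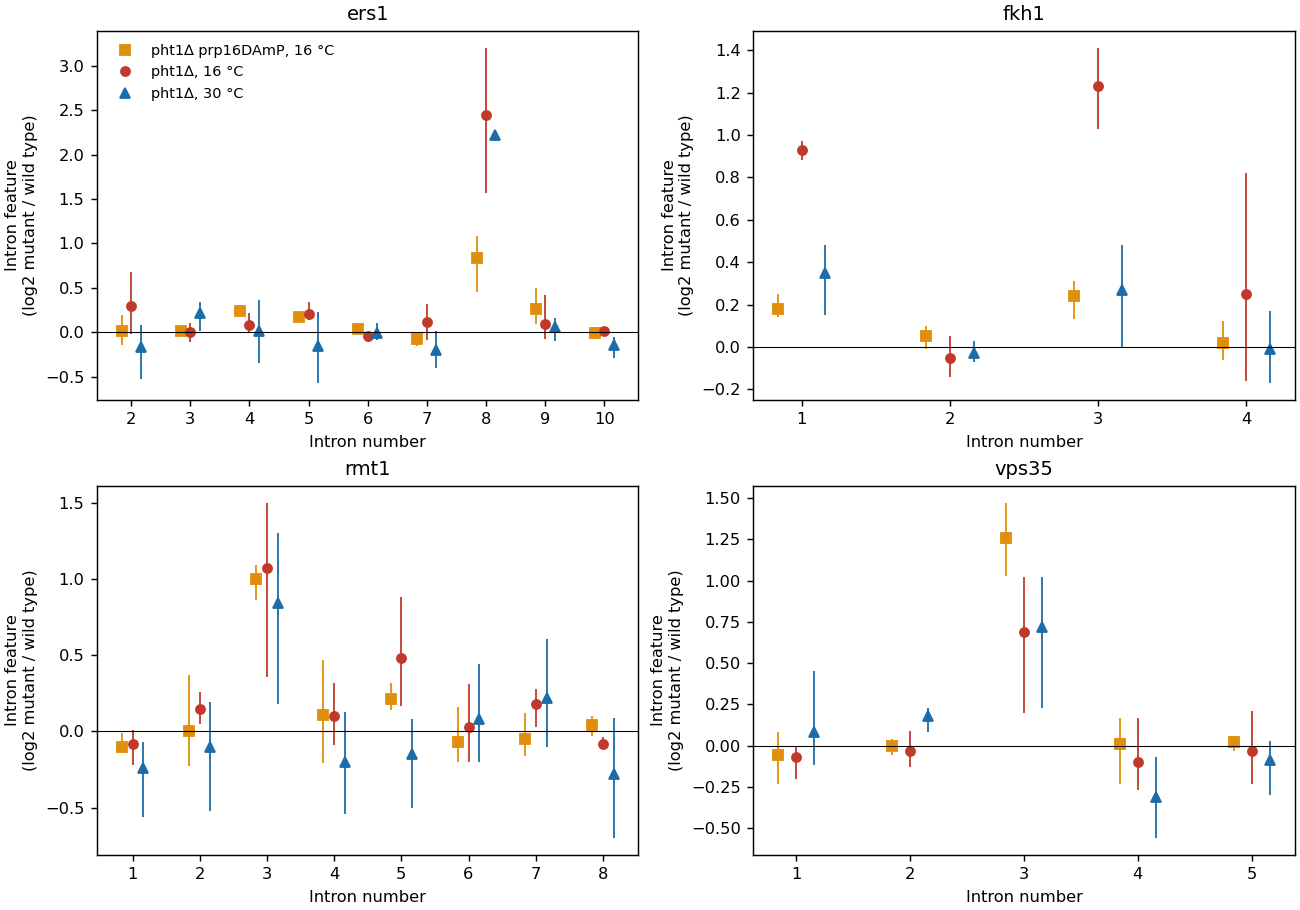
Log2 ratio of each intron feature along ers1, fkh1, rmt1 and vps35 by intron number, as the mean (symbol) and range (line) of 3 arrays on those labelled pht1∆ prp16DAmP at 16 °C and in pht1∆ at 16 and 30 °C. One internal intron stands above its neighbours in ers1 (intron 8, 2.45 in pht1∆ at 16 °C), rmt1 (intron 3) and vps35 (intron 3), while introns 1 and 3 both stand up in fkh1.

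In fkh1 introns 1 and 3 were higher in pht1∆ at 16 °C and intron 2, which lies between them, was not. The index of intron 3 was 1.41, 1.15 and 1.48 (1.35 ± 0.13, adjusted p = 1.4e-08), and its intron feature was 1.23. Intron 1 had an intron feature of 0.93, intron 2 one of -0.05 and intron 4 one of 0.25. The within-gene difference of intron 2 was -0.61, -0.83 and -1.12 (-0.85 ± 0.12, adjusted p = 1.8e-05), where its own log2 ratio was near 0 and those of its neighbours were high. As printed above, introns 2 and 3 have the same 6-base 5′ splice site. Their branch motifs are CTAAC and CTGAC, with 10 and 16 bases between the branch A and the end of the intron. At 30 °C the index of intron 3 in pht1∆ was 0.69, 0.80 and 0.27 (0.59 ± 0.13), and the difference between temperatures was 0.76 ± 0.18 (adjusted p = 0.00788).

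The other internal introns with the highest index in pht1∆ at 16 °C also rose through the intron feature. Intron 2 of cki3, a casein kinase 1 gene, had an index of 0.70, 1.73 and 1.22 (1.22 ± 0.16, adjusted p = 3.2e-06) and an intron feature of 1.06. Intron 4 of mug62 had 2.01, 0.37 and 1.06 (1.15 ± 0.24), and without replicate 1 its mean of 0.71 did not pass. Those with the lowest index were of both kinds. Intron 2 of bdp1, which encodes a subunit of the Pol III factor TFIIIB, had -1.38, -0.23 and -0.95 (-0.85 ± 0.17), with an intron feature of -0.06 and an exon feature of 0.79. Without replicate 1 its mean was -0.59 and did not pass, and with the junction feature as reference it was -0.03. Intron 6 of naa25, a gene of the NatB acetyltransferase, had -2.21, -0.38 and -0.37 (-0.99 ± 0.24) with an intron feature of -0.79, so 1 array was far below the other two, and without it the value was -0.38 and did not pass.

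All internal introns of rsd1 had a lower index in pht1∆. Rsd1 is an RNA-binding protein linked to splicing, and introns 2 to 5 are its internal introns. Their index lay between -0.75 and -0.69 at 16 °C and between -1.08 and -0.79 at 30 °C, and intron 4 had -0.81, -0.95 and -1.48 at 30 °C (-1.08 ± 0.14, adjusted p = 9.5e-06). The exon feature of rsd1 was 0.56 at 16 °C and 1.12 at 30 °C, and the features of these introns lay between -0.19 and 0.33. None of them passed the within-gene test at either temperature. With the junction feature as reference intron 5 had -0.27 at 16 °C and did not pass.

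At 30 °C the next highest internal introns in pht1∆ differed in kind. Intron 2 of dph5, a diphthamide synthesis gene, had an index of 0.97, 1.26 and 2.40 (1.54 ± 0.18, adjusted p = 6e-07) with an exon feature of -1.12 and an intron feature of 0.42 that did not pass. Intron 2 of SPAC3G6.05 had 1.68, 1.24 and 1.64 (1.52 ± 0.20, adjusted p = 6.5e-06) with an exon feature of -1.05. In the group labelled swr1∆ the same intron had -0.28, -0.80 and -1.39 (-0.82 ± 0.20, adjusted p = 0.0124), and the exon feature there was 1.07. That value did not pass without replicate 2 (-0.83), without replicate 3 (-0.54), with the junction feature as reference (-0.55) or in a fit of only the arrays compared. The difference of swr1∆ minus pht1∆ was -2.34 ± 0.28 (adjusted p = 1.6e-05). Intron 4 of mtl16 had 2.29, 0.32 and 2.42 in pht1∆ (1.68 ± 0.46, adjusted p = 0.0108), and without replicate 1 or replicate 3 it did not pass, at 1.37 and 1.31. With the label swr1∆ it had 4.26, 0.15 and 0.02, a value that 1 array decides, since without replicate 1 it was 0.08. Between swr1∆ and pht1∆ at 30 °C limma called 0 internal introns higher and 3 lower, against 0.0207% and 0.249% of all introns, and 124 had an unadjusted p under 0.05. With the replicate number as a block 8 were called, and with 1 array left out the number was 1 (without the third pht1∆ array) to 8 (without the second).

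Intron 3 of rmt1 was among the highest introns on the arrays labelled pht1∆ prp16DAmP, pht1∆ usp107DAmP, usp107DAmP and swr1∆ at 30 °C. Its index was 1.85, 1.77 and 1.45 on the arrays labelled pht1∆ prp16DAmP (1.69 ± 0.21, adjusted p = 1e-05), 1.45, 2.05 and 0.99 on those labelled pht1∆ usp107DAmP (1.49 ± 0.21, adjusted p = 1.4e-05) and 1.5, 1.77 and 1.13 on those labelled usp107DAmP (1.47 ± 0.21, adjusted p = 0.00011). With the label swr1∆ it had 0.85, 1.69 and 0.86 (1.13 ± 0.21, adjusted p = 0.0016), and without replicate 2 it did not pass (0.85). In fits of only the arrays compared the usp107DAmP and swr1∆ values did not pass. In pht1∆ it had 1.29, 0.13 and 1.28 at 16 °C and 0.18, 1.35 and 1.27 at 30 °C, with 1 low array in each. All 8 introns of rmt1 had a called, higher index on the arrays labelled pht1∆ prp16DAmP, where the exon feature was -0.69, but intron 3 alone had a high intron feature, 1.0, against -0.10 to 0.21 in the other 7. Its within-gene difference was 0.98 ± 0.22 there (adjusted p = 0.0135). The 5′ splice site of this intron, GTATTT, scored 5.61.

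On the arrays labelled pht1∆ prp16DAmP intron 3 of vps35 was the single raised intron of its transcript, and intron 6 of icp55 had a high index. The vps35 intron had an index of 1.26, 1.30 and 1.77 (1.44 ± 0.17, adjusted p = 7.1e-06) and an intron feature of 1.26, against -0.06 to 0.02 for the other 4 introns. The index of this intron was also called higher in pht1∆ at 16 °C (0.95, 0.23 and 1.02), on the arrays labelled prp16DAmP at 16 °C (0.58, 0.38 and 1.04), and on those labelled usp107DAmP (0.74, 0.81 and 0.84). The 5′ splice site of intron 3 is GTAAGA and scored 8.08, against 5.66 for that of intron 2 and 7.49 for that of intron 4. The icp55 intron, in a gene for a mitochondrial peptidase, had an index of 1.26, 1.42 and 1.2 (1.29 ± 0.15, adjusted p = 7.1e-06). The intron features of the other 8 measured introns, a measure without the exon feature, lay between -0.05 and 0.20. In pht1∆ at 16 °C it had 0.01, -0.43 and 0.02, and the difference of the double mutant minus pht1∆ was 1.43 ± 0.22 (adjusted p = 0.00019). With prp16DAmP alone at 16 °C it had 0.64, 0.29 and 0.66 (0.53 ± 0.15, adjusted p = 0.0195). All 3 double-mutant arrays were above all arrays of both single mutants.

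Intron 3 of nrk1 shows the other pattern, in which the index of every intron of the gene rose beside a lower exon feature. Its index was 1.61, 1.55 and 1.12 on the arrays labelled pht1∆ usp107DAmP (1.43 ± 0.11, adjusted p = 1e-09), and on those labelled usp107DAmP 0.97, 1.09 and 0.89 (0.99 ± 0.11, adjusted p = 5.5e-06), which did not pass in a fit of only the arrays compared. In pht1∆ at 30 °C it had 0.54, 0.93 and 0.79 (0.75 ± 0.11, adjusted p = 4e-05). All 4 introns of nrk1 had a called, higher index on the double-mutant arrays, between 0.91 and 1.43, beside an exon feature of -1.03. The within-gene difference of intron 3 was 0.34 ± 0.12 and did not pass (adjusted p = 0.12). The same held for prp39, whose 4 internal introns had an index between 0.73 and 1.08 on these arrays with an exon feature of -0.91, and in the opposite direction for vma3, a V-ATPase proteolipid gene, whose internal introns 2 and 3 had -0.98 and -1.05 with an exon feature of 1.14. With the junction feature as reference vma3 intron 3 had -0.22 and did not pass.

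**Figure D4:**
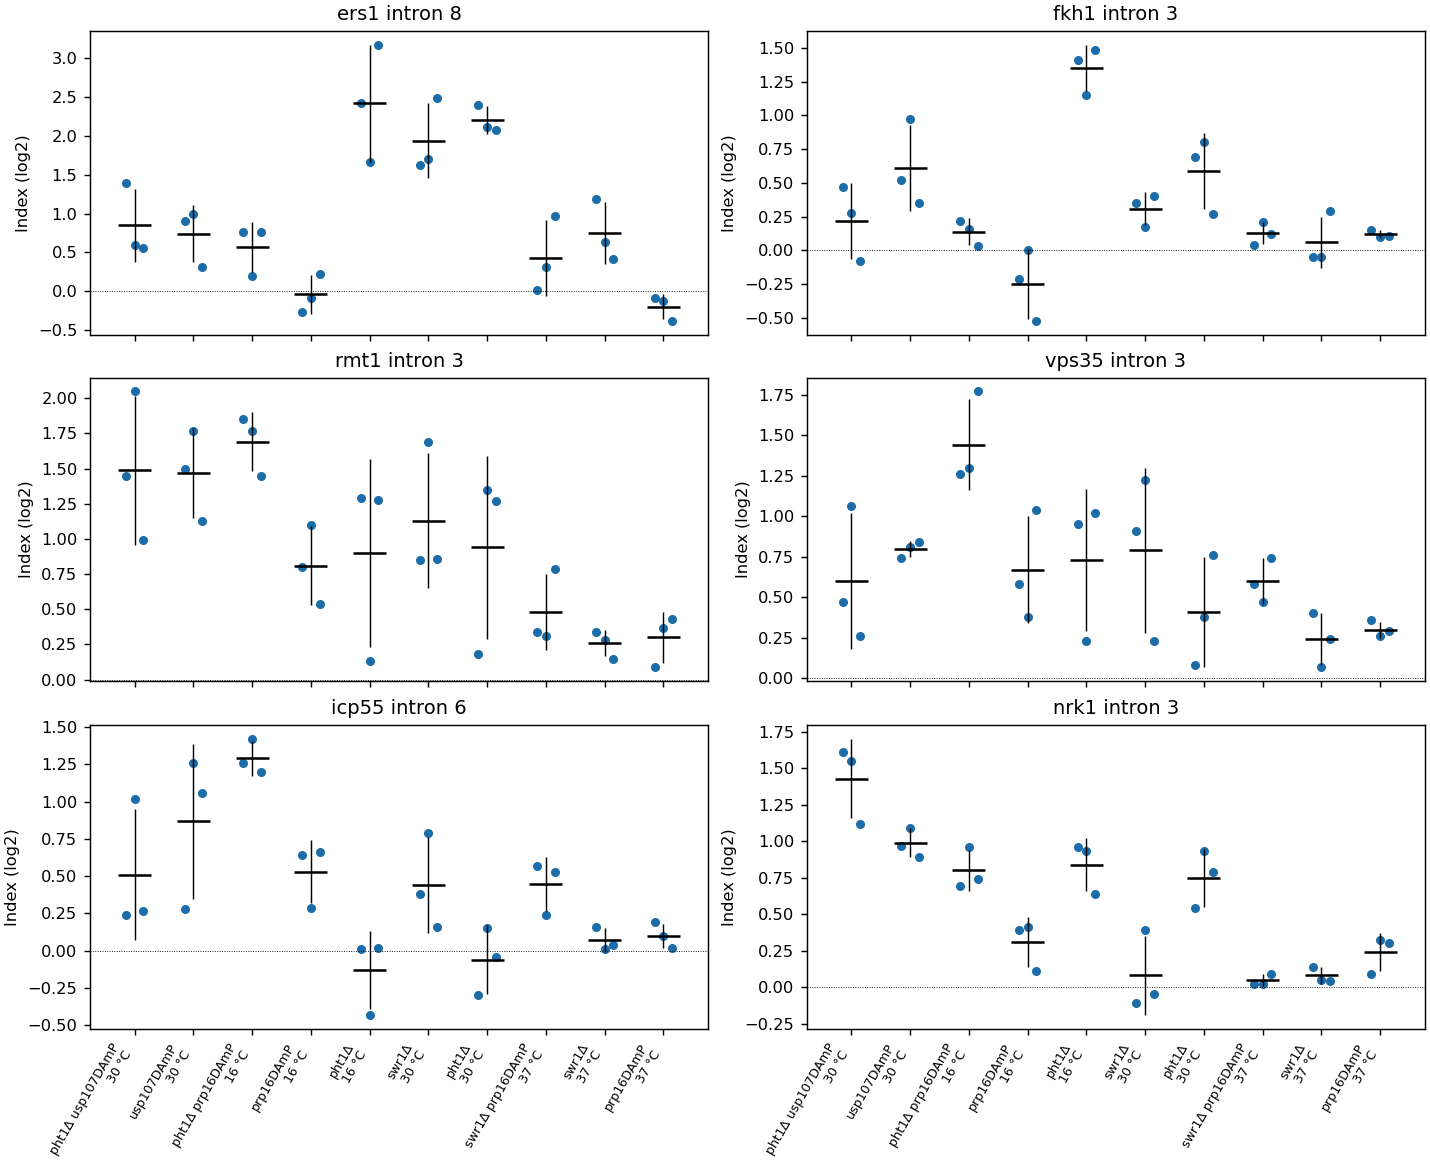
Index of 6 internal introns on each of the 30 arrays (points) with the mean and SD of the 3 arrays of each group, in log2 of mutant over wild type. Intron 8 of ers1 is high on all 9 arrays of pht1∆ at 16 and 30 °C and of the group labelled swr1∆ at 30 °C (1.63 to 3.17), and intron 6 of icp55 is above 1 on all 3 arrays labelled pht1∆ prp16DAmP.

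Whether an internal intron moved apart from the rest of its transcript was answered by the within-gene difference. In pht1∆ at 16 °C 132 internal introns (10.6%) were higher and 92 (7.41%) lower than the other introns of their gene, against 11.4% and 10.6% of all 3780 introns tested. Of those 3780, 1282 were in genes with 2 introns, where each value is the negative of its partner's. Calls there come in opposite pairs by construction, 160 higher and 160 lower, which limits the share of all introns as a yardstick in every group. First introns had 11.9% higher and 11.4% lower, and last introns 10.1% and 12.3%. Without replicate 1 the total was 78. In pht1∆ at 30 °C 55 were higher and 37 lower, against 4.50% and 4.29% of all introns, and without replicates 1 or 3 the total was 34 or 38. With the label swr1∆ at 30 °C 34 were higher and 18 lower, against 2.80% and 2.20%, with totals of 7, 27 and 111 without replicates 1, 2 and 3. With arrays scaled to equal spread pht1∆ gave 156 at 16 °C and 21 at 30 °C, against 53 for swr1∆ at 30 °C, 90 for swr1∆ at 37 °C and 63 for prp16DAmP at 37 °C, so the place of pht1∆ at 30 °C among the groups depends on the scaling. In fits of only the arrays compared pht1∆ gave 50 and 2, against 48 for swr1∆ at 37 °C.

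The groups with a splicing factor allele had 0 to 72 such calls, and their order against pht1∆ at 30 °C turned with arrays scaled to equal spread, where pht1∆ prp16DAmP had 43, swr1∆ prp16DAmP 42, prp16DAmP at 16 °C 33 and usp107DAmP 22. For pht1∆ usp107DAmP 17 were higher and 17 lower, against 1.77% and 1.80% of all introns, although this group had the most calls by index, and the total was 0 without replicate 2 and 69 without replicate 3. On those labelled usp107DAmP 14 were higher and 18 lower, against 1.38% and 1.22%, with a total of 11 without replicate 2. On those labelled pht1∆ prp16DAmP 28 were higher and 11 lower, against 1.72% and 1.01%, with totals of 5 and 11 without replicates 1 and 2. On those labelled prp16DAmP at 16 °C 33 were higher and 39 lower, against 3.25% and 3.10%, with totals of 9 and 24 without replicates 1 and 3. On those labelled swr1∆ prp16DAmP at 37 °C 0 were higher and 6 lower, against 0.317% and 0.476%, where 142 had an unadjusted p under 0.05, and the total was 1 and 0 without replicates 1 and 2. For swr1∆ and prp16DAmP at 37 °C limma called 0, as it did among all introns (0.0%), with 92 and 41 at an unadjusted p under 0.05.

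Most internal introns that were high within their gene in pht1∆ at 16 °C were also high in themselves. The intron feature was called higher for 117 of the 132 (88.6%), with a median log2 ratio of 0.54, and the exon feature lay within 0.1 of 0 for 72 (54.5%). Of the 92 that were low within their gene, 15 (16.3%) had an intron feature called lower, and the median was -0.08, since by construction 1 high intron makes the others of its gene low in this measure. Both measures called 92 internal introns higher in pht1∆ at 16 °C, 28 in pht1∆ at 30 °C, 22 on the arrays labelled pht1∆ prp16DAmP and 15 on those labelled pht1∆ usp107DAmP.

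Among the 308 genes with at least 2 internal introns, 78 had an internal intron that was high within its gene in pht1∆ at 16 °C, and in 71 of these it was exactly 1. By construction, high introns of the same gene lower each other in this measure, so exactly 1 is favoured in any group. The numbers were 39 of 40 genes in pht1∆ at 30 °C and 25 of 25 on the arrays labelled prp16DAmP at 16 °C. By index 105 of the 308 genes had at least 1 internal intron called higher, exactly 1 in 71 genes and every internal intron in 15 genes. With the label pht1∆ usp107DAmP 106 genes had at least 1, exactly 1 in 39 genes and every internal intron in 43 genes. For pht1∆ at 30 °C 65 genes had at least 1, with exactly 1 in 41 and all in 14. Introns of a gene share the exon feature in the index, so calls within a gene are not independent. The log2 ratios of neighbouring intron features, which share no exon feature, correlated across 1239 pairs with r = 0.241 in pht1∆ at 16 °C and 0.152 at 30 °C. On the arrays labelled pht1∆ usp107DAmP r was 0.176, on those labelled usp107DAmP 0.164 and on those labelled pht1∆ prp16DAmP -0.0272. In the remaining groups it lay between -0.0386 (swr1∆ at 37 °C) and 0.0664 (swr1∆ at 30 °C). These correlations are across introns of the same arrays and are a description.

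Further introns were called by this measure. Intron 2 of cnp3, which encodes the centromere protein CENP-C, was low in pht1∆ at 30 °C, with -0.92, -0.46 and -0.95 (-0.77 ± 0.11, adjusted p = 7.9e-05). Its intron feature was -1.65, that of intron 1 was -1.51 and that of intron 3 was -0.24, with an exon feature of -1.05. Intron 2 thus lay near intron 1, and intron 3 was the one that differed. Intron 2 of gnd1, a phosphogluconate dehydrogenase gene, was low in the same arrays, with -0.89, -1.22 and -0.69 (-0.93 ± 0.16, adjusted p = 0.00041), since the features of introns 1, 3 and 4 were 1.05, 1.48 and 1.2 against 0.31 for intron 2. Intron 4 of ham1, an ITP pyrophosphatase gene, was high on the arrays labelled prp16DAmP at 16 °C, with 1.05, 0.64 and 0.83 (0.84 ± 0.13, adjusted p = 0.00037). In fits of only the arrays compared none of these 3 passed.

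Some of the largest within-gene values were made by part of the arrays. Intron 2 of brf1, another TFIIIB gene, had -2.90, -2.94 and -0.04 on the arrays labelled prp16DAmP at 16 °C (-1.96 ± 0.30, adjusted p = 0.0003), so 2 arrays were low and 1 was not, and in a fit of only the arrays compared it did not pass. Intron 2 of ret2, a coatomer gene, had -3.35, -0.27 and -0.20 on those labelled swr1∆ at 30 °C, and without replicate 1 its mean of -0.23 did not pass. Intron 2 of ppk38 had -2.27, -0.30 and -0.07 in pht1∆ at 16 °C, and -0.18 without replicate 1. Intron 3 of sec10, an exocyst gene, had 1.25, 1.33 and 0.02 on the arrays labelled pht1∆ usp107DAmP, and did not pass without replicate 1 (0.67) or replicate 2 (0.63).

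Internal introns differed between temperatures in pht1∆. The index at 16 °C was higher than at 30 °C for 57 internal introns and lower for 25, against 6.68% and 3.26% of all introns, and with the junction feature as reference for 122 and 17. The total of 82 became 35 without the first array at 16 °C and 53 without the second array at 30 °C. Intron 3 of par1, which encodes a regulatory subunit of PP2A, had 1.55, 1.42 and 0.47 at 16 °C against -0.30, -0.51 and 0.04 at 30 °C (difference 1.4 ± 0.24, adjusted p = 0.00056). Its intron feature was 1.12 at 16 °C, and the other 4 introns of par1 lay between -0.07 and 0.06. Intron 3 of arf6, an ARF-family GTPase gene, had 0.29, 0.51 and 0.85 at 16 °C against -0.84, -0.93 and -0.68 at 30 °C (difference 1.36 ± 0.19, adjusted p = 0.0001), and its groups did not overlap. At 16 °C this came with an intron feature of 0.78, and at 30 °C with an exon feature of 0.66. Intron 3 of gnd1 went the other way, with -0.10, 0.04 and -0.29 at 16 °C against 1.25, 1.61 and 0.43 at 30 °C (difference -1.21 ± 0.26, adjusted p = 0.00462). With the junction feature as reference its difference was -0.62 and did not pass.

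Each double mutant was also set against its single mutants. The arrays labelled pht1∆ usp107DAmP had a higher index than pht1∆ at 30 °C for 122 internal introns and a lower one for 88, against 10.8% and 6.99% of all introns. The split was 163 higher and 22 lower with the junction feature as reference, with arrays scaled to equal spread 22 were called in all, and in a fit of only the arrays compared 0. The total of 210 became 79 without the second double-mutant array, 122 without the second pht1∆ array and 126 without introns whose values recur. Intron 4 of prp39 (difference 1.30 ± 0.20, adjusted p = 0.00023) and intron 2 of hem12, a heme synthesis gene (1.21 ± 0.19, adjusted p = 0.00023), were the highest, with exon features of -0.91 and -0.80 on the double-mutant arrays against -0.06 and 0.21 in pht1∆. Neither passed in a fit of only the arrays compared, and with the junction feature as reference prp39 intron 4 had 0.48 and did not pass. Against usp107DAmP alone 4 internal introns were higher and 0 lower, against 0.207% and 0.0415% of all introns, with 107 at an unadjusted p under 0.05. With the replicate number as a block 12 were called, and with 1 array left out the number was 0 (without the second double-mutant or the first usp107DAmP array) to 29 (without the third double-mutant array). The highest were dim1 intron 3 (1.33 ± 0.22) and intron 2 of rhp23, the Rad23 gene (0.96 ± 0.21), and neither passed with the junction feature as reference (0.74 and 0.98) or with arrays scaled to equal spread (0.94 and 0.74). These 2 comparisons share the double-mutant arrays.

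The arrays labelled pht1∆ prp16DAmP had a higher index than pht1∆ at 16 °C for 74 internal introns and a lower one for 85, against 4.85% and 8.30% of all introns, and with the junction feature as reference for 39 and 111. The total of 159 was 67 without the first double-mutant array and 69 without the first pht1∆ array. The highest was icp55 intron 6 and the lowest ers1 intron 8, both given above. Intron 4 of mug62 had a difference of -1.29 ± 0.33 (adjusted p = 0.0112), which did not pass without the first array of either group (-1.14 and -0.85). The arrays labelled swr1∆ prp16DAmP had a higher index than those labelled swr1∆ at 37 °C for 5 internal introns and a lower one for 4, against 0.622% and 0.207% of all introns, and with 1 array left out the total of 9 became 1 to 52. Among them were trm5 intron 3 (1.01 ± 0.18, adjusted p = 0.00435) and mug137 intron 4 (-1.45 ± 0.21, adjusted p = 0.00054). Neither passed with the junction feature as reference (0.34 and -0.77), and trm5 intron 3 also did not pass without the second double-mutant array (0.92) or the third swr1∆ array (0.91).

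In pht1∆ at 16 °C the share of internal introns called higher by index fell with their place in the gene. Among all introns it was 21.9%. The index was called higher for 129 of 629 introns at place 2 (20.5%), 53 of 308 at place 3 (17.2%), 24 of 149 at place 4 (16.1%) and 21 of 155 at place 5 or later (13.5%). By gene size the share was 24.1% in genes with 3 introns, 17.9% with 4, 17.5% with 5 and 14.1% with 6 or more. With prp16DAmP at 16 °C the order was the reverse, 12.6, 13.3, 16.1 and 19.4% by place, and 18.8% in genes with 6 or more introns against 11.6 to 12.1% in smaller ones. Place and gene size move together, genes contribute several introns, and no test was run on these shares.

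Long internal introns were called higher more often than short ones in pht1∆ at 16 °C. The share was 73 of 280 (26.1%) among introns of 71 bases or more, and 54 of 424 (12.7%) among those of 49 bases or fewer. Over all introns the shares were 27.9% and 16.2%, so the order was the same in introns at large. By the within-gene difference, which takes out the exon feature, the internal shares were 15.7% and 9.67%, against 15.4% and 9.14% over all introns. Internal introns with a 5′ splice site score of 7.49 or less were called higher in 21.8% and those with 9.65 or more in 15.3%. Over all introns these shares were 24.7% and 21.3%. By the within-gene difference they were 13.3% and 8.37% for internal introns, against 13.8% and 9.93% over all introns. Where the branch A lay 13 or more bases from the end of the intron the share was 24.2%, against 15.3% at 10 bases or fewer, and within the gene 15.9% and 9.18%. Over all introns those shares were 27.0% and 19.3% by index and 14.1% and 10% within the gene. At 30 °C the index of internal introns was called higher in 10.6% at the low scores and 14.7% at the high ones, against 14.6% and 14.8% over all introns. The within-gene shares there were 5.05% and 4.42% for internal introns, against 4.85% and 4.47% over all introns. Length, splice site and branch distance share introns and genes, and these values are descriptions with no test.

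**Figure D5:**
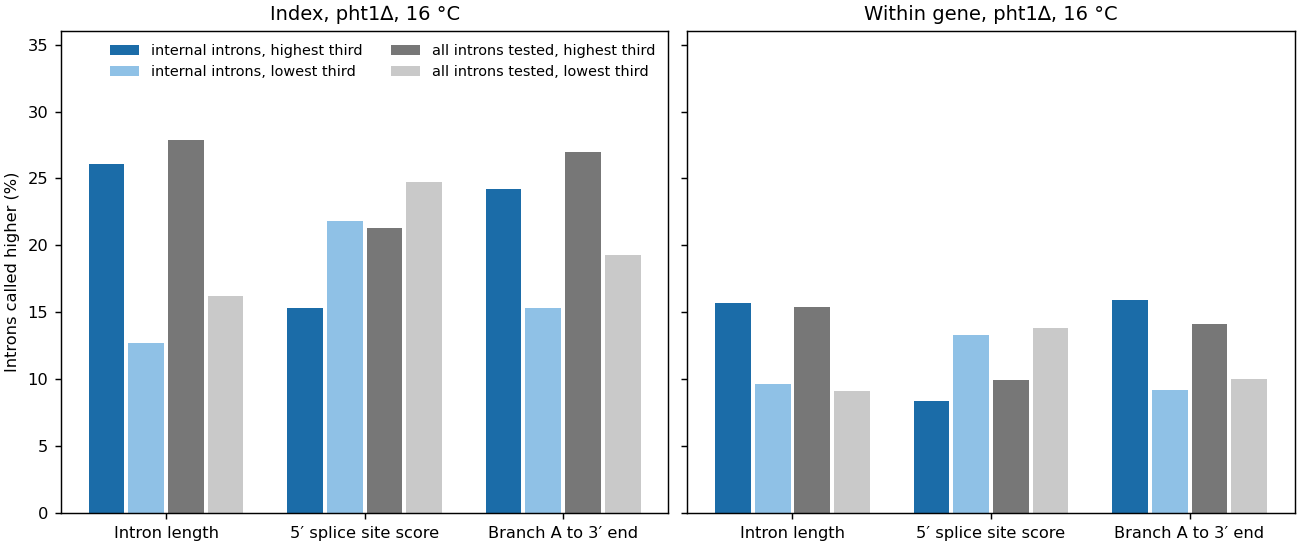
Percent of introns called higher in pht1∆ at 16 °C, in the upper and lower classes of intron length, 5′ splice site score and distance from the branch A to the intron end, for internal introns and for all introns, by index (left) and by the within-gene difference (right). By index 26.1% of long internal introns and 12.7% of short ones were called higher, and the order of the classes is the same for all introns.

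Internal introns of genes of known pathways were counted from lists. Of 36 internal introns in 18 spliceosome genes, 16 were higher and 0 lower on the arrays labelled pht1∆ usp107DAmP (median 0.29, all introns 0.14). Among all introns 25.1% were higher and 5.48% lower there. On those labelled pht1∆ prp16DAmP 12 were higher and 0 lower, against 14.5% and 3.09% of all introns. The label usp107DAmP had 9 higher and 0 lower, against 11.6% and 2.68%. The label prp16DAmP at 16 °C had 9 higher and 1 lower, against 14.1% and 3.48%. Introns of a gene share its exon feature, so these calls are not independent. By the within-gene difference 0 were higher and 0 lower with the labels pht1∆ usp107DAmP, pht1∆ prp16DAmP and usp107DAmP. With prp16DAmP at 16 °C 0 were higher and 2 lower by that measure, and in pht1∆ 2 and 2 at 16 °C and 3 and 1 at 30 °C. By index 2 were higher and 6 lower in pht1∆ at 16 °C (median -0.02, all introns 0.11), against 21.9% and 3.88% of all introns. At 30 °C 7 were higher and 4 lower, against 14.0% and 3.61%. The introns of rsd1 made up 4 of the lower ones at each temperature. Intron 2 of lsm2, a gene of the Lsm ring, had 0.72, 0.58 and 0.47 in pht1∆ at 16 °C (0.59 ± 0.15, adjusted p = 0.00354), and without replicate 1 it did not pass (0.52). Intron 2 of lsm5 had 0.63, 0.80 and 1.11 in pht1∆ at 30 °C (0.85 ± 0.18, adjusted p = 0.00177) with an exon feature of -0.75, and with the junction feature as reference it did not pass (0.47).

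Of 15 internal introns in 6 V-ATPase genes, 5 were higher and 0 lower in pht1∆ at 16 °C (median 0.22, all introns 0.11). Among all introns 21.9% were higher and 3.88% lower there. At 30 °C 0 were higher and 1 lower, against 14.0% and 3.61%. On the arrays labelled prp16DAmP at 16 °C 7 were higher and 0 lower, against 14.1% and 3.48%. Those labelled pht1∆ prp16DAmP had 6 and 0, against 14.5% and 3.09%. With the label usp107DAmP 1 was higher and 2 lower, against 11.6% and 2.68%. With pht1∆ usp107DAmP 4 were higher and 2 lower, against 25.1% and 5.48%. Intron 2 of vma13 had 0.93, 0.78 and 0.23 in pht1∆ at 16 °C (0.65 ± 0.20), and without replicate 1 or replicate 2 it did not pass (0.51 and 0.58). Of 21 internal introns in 11 cytoskeleton genes 5 were higher and 1 lower in pht1∆ at 16 °C, among them intron 2 of arc4, an Arp2/3 subunit gene (1.0, 1.21 and 0.53, mean 0.91 ± 0.18, adjusted p = 0.00033). At 30 °C 0 were higher and 1 lower. Of 24 introns in 8 small GTPase genes 5 were higher and 1 lower at 16 °C and 3 were higher and 3 lower at 30 °C. Beside the cytoskeleton and GTPase counts, the shares of all introns were 21.9% and 3.88% at 16 °C and 14.0% and 3.61% at 30 °C.

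Of 19 internal introns in 5 cell cycle genes 5 were higher in pht1∆ at 16 °C, 4 at 30 °C and 8 on the arrays labelled pht1∆ usp107DAmP, with 0 lower in each. Among all introns 21.9, 14.0 and 25.1% were higher in these 3 groups, and 3.88, 3.61 and 5.48% lower. Intron 2 of cds1, the replication checkpoint kinase gene, had 0.96, 0.78 and 1.2 at 16 °C (0.98 ± 0.14, adjusted p = 9.4e-06), with an exon feature of -0.76. Of 17 introns in 8 ubiquitin conjugation genes 3 were higher in pht1∆ at 16 °C and 5 at 30 °C, against 21.9% and 14.0% of all introns. Intron 2 of ubc13 had 1.24, 0.82 and 0.60 at 16 °C (0.89 ± 0.23, adjusted p = 0.00442), which did not pass without replicate 1 (0.71). Of 11 introns in 3 RNAi and heterochromatin genes 3 were higher in pht1∆ at each temperature, beside the same shares of all introns, and ers1 intron 8 led them. The 1 internal intron of the H2A.Z and SWR complex list was not called in any group. Each of these counts stands beside the shares of all introns given above for its comparison, and no list was tested against other introns.

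The genes with the most internal introns, 8 each, were rdh54, a recombination translocase gene, trt1, which encodes telomerase reverse transcriptase, and icp55. In pht1∆ at 16 °C the index of the internal introns of rdh54 lay between -0.01 and 0.50, and 1 of 8, intron 2, was called higher. In trt1 it lay between -0.46 and 0.57, with intron 3 called higher (0.57) and intron 7 called lower (-0.46). In icp55 it lay between -0.63 and 0.00 beside an exon feature of 0.47, with introns 4, 5, 7 and 9 called lower.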

How the data were processed

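The table deposited by the authors holds log2 ratios per feature and array, 14556 features of 5081 genes with 0 missing values. The base of the logarithm, the scanner, background correction, normalization and array-design build are not given by any source used here. Base 2 was assumed, and mutant over wild type was taken from the dyes, per the labels. Array medians lay within 0.0254 of 0, and signal over background was not available, so the number of arrays limits the precision. No filter on low values and no further normalization were applied.

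Index and within-gene difference were fitted with limma 3.58.1 in R 4.3.3 (lmFit, eBayes, 1 mean per group over all 30 arrays, two-sided, Benjamini-Hochberg over 4821 or 3780 introns) after tests on simulated data. Comparisons with wild type test the mean against 0 and include any dye bias. Tables and plots used Python 3.11.15, pandas 2.3.3, numpy 2.4.6 and matplotlib 3.10.9.

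Of the genes, 4806 matched the annotation by locus tag, 200 by synonym and 75 not at all. Identity of an intron rests on its order. In genes that lack a junction feature for their first intron, the first annotated coding exon had a median of 9 bases, against 92 bases (plus strand) and 107 bases (minus strand) in the others.

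The introns named were, against wild type, the 4 highest and 3 lowest called with 1 sign on all 3 arrays, the 2 highest and 2 lowest of each other comparison, the extremes of each list in pht1∆, and the genes with most internal introns, with further introns of those genes. The members and lists were chosen with earlier results of these data known. Replicate numbers paired swr1∆ with pht1∆ at 30 °C (r = 0.368, 0.457 and 0.101 between deviations of same-numbered arrays) and pht1∆ usp107DAmP with usp107DAmP (0.483, 0.424 and 0.576), from the data and not the labels.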

Additional observations from a re-analysis of the deposited data

Results flagged for a closer look

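The index of 15 named internal introns differed between pht1∆ at 16 °C and pht1∆ at 30 °C by limma's test of the difference itself (adjusted p from 0.0001 to 0.0473). These values are the 16 °C index minus the 30 °C index. It was higher at 16 °C for par1 intron 3 (1.4 ± 0.24), arf6 intron 3 (1.36 ± 0.19), cki3 intron 2 (1.16 ± 0.23), arf6 intron 2 (1.07 ± 0.19), arc4 intron 2 (0.83 ± 0.25), fkh1 intron 3 (0.76 ± 0.18), cnp3 intron 2 (0.66 ± 0.20), vma13 intron 4 (0.61 ± 0.18) and alp41 intron 3 (0.52 ± 0.16). It was lower at 16 °C for SPAC3G6.05 intron 2 (-1.63 ± 0.28), gnd1 intron 3 (-1.21 ± 0.26), naa25 intron 6 (-1.14 ± 0.34), dph5 intron 2 (-1.02 ± 0.25), ppk38 intron 2 (-0.82 ± 0.25) and irc6 intron 2 (-0.48 ± 0.16). The part played by the exon feature differs among them. For par1, cki3 and arc4 the exon feature was -0.02, -0.16 and -0.21 at 16 °C and 0.12, 0.15 and -0.19 at 30 °C, while the intron feature was 1.12, 1.06 and 0.70 against -0.13, 0.21 and -0.10. For SPAC3G6.05 the intron feature was 0.08 at 16 °C and 0.47 at 30 °C and the exon feature 0.20 and -1.05. For cnp3 intron 2 both features were low at both temperatures, at -0.72 and -0.78 at 16 °C against -1.65 and -1.05 at 30 °C for intron and exon. The values of naa25 and ppk38 at 16 °C rest on 1 array, as given above.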

How the results depend on the processing

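Counts are internal introns called in either direction, and groups are named by their labels. With arrays scaled to equal spread the index gave 88 in pht1∆ at 30 °C, 124 in pht1∆ usp107DAmP, 141 in prp16DAmP at 16 °C, and at 37 °C 49 in swr1∆ prp16DAmP, 121 in swr1∆ and 161 in prp16DAmP. The within-gene difference gave 21, 0, 33, 42, 90 and 63 in the same order, and the index differences gave 37 (pht1∆ 16 minus 30 °C), 1 (swr1∆ minus pht1∆), 22 (pht1∆ usp107DAmP minus pht1∆), 0 (minus usp107DAmP) and 121 (swr1∆ prp16DAmP minus swr1∆). With the junction feature as reference the counts were 122 in pht1∆ prp16DAmP, 40 in swr1∆ at 30 °C and 1 each in swr1∆ prp16DAmP and swr1∆ at 37 °C. The differences then gave 139 for pht1∆ 16 minus 30 °C and 1 each for swr1∆ minus pht1∆, pht1∆ usp107DAmP minus usp107DAmP and swr1∆ prp16DAmP minus swr1∆. In fits of only the arrays compared the index gave 73 in pht1∆ at 30 °C, 2 in swr1∆ at 30 °C, 0 in usp107DAmP, 102 in prp16DAmP at 16 °C, 31 in pht1∆ usp107DAmP, and after the 37 °C shift 69 in swr1∆, 81 in prp16DAmP and 0 in swr1∆ prp16DAmP. The within-gene difference gave 2, 1, 0, 0, 0, 48, 7 and 1 in the same order and 50 in pht1∆ at 16 °C, and the differences gave 20 for pht1∆ 16 minus 30 °C, 1 for swr1∆ minus pht1∆, and 0 each for pht1∆ usp107DAmP minus pht1∆ and minus usp107DAmP. With the replicate number as a block, 8 were called for swr1∆ minus pht1∆ and 12 for pht1∆ usp107DAmP minus usp107DAmP, and the block ended no call of a named intron. Without introns whose values recur, 126 were called for pht1∆ usp107DAmP minus pht1∆. The causes of these changes were not tested.

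With 1 array left out the index gave 119 to 144 in pht1∆ at 30 °C, 116 to 224 at 16 °C, 7 to 128 in swr1∆ at 30 °C, 33 to 158 in usp107DAmP, 21 to 149 in prp16DAmP at 16 °C, 146 to 390 in pht1∆ usp107DAmP and 53 to 149 in pht1∆ prp16DAmP. At 37 °C it gave 0 to 3 in swr1∆, 0 to 1 in prp16DAmP and 0 to 14 in swr1∆ prp16DAmP. The within-gene difference gave 34 to 138, 78 to 180, 7 to 111, 11 to 34, 9 to 69, 0 to 69 and 5 to 31 in the first order, and 0 to 0, 0 to 0 and 0 to 5 at 37 °C. The differences gave 35 to 91 (pht1∆ 16 minus 30 °C), 1 to 8 (swr1∆ minus pht1∆), 79 to 283 (pht1∆ usp107DAmP minus pht1∆), 0 to 29 (minus usp107DAmP), 67 to 132 (pht1∆ prp16DAmP minus pht1∆) and 1 to 52 (swr1∆ prp16DAmP minus swr1∆).

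The junction feature as reference turned 4 named values, to 0.02 for arf6 intron 2 in pht1∆ at 30 °C, 0.18 for bdp1 intron 2 and 0.27 for pfd5 intron 2 in swr1∆ at 30 °C, and 0.51 for lsm5 intron 2 in prp16DAmP at 16 °C. It ended 28 further calls of named introns, scaling ended 16, and fits of only the arrays compared ended 54.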
